A study of Arabidopsis thaliana with 27 samples.

Results

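The WRKY genes encode a plant family of transcription factors, and 56 of its members were followed through RNA of 3 root cell types of Arabidopsis. The members were found by gene identifier among the 34262 gene entries of the count tables, and all 56 had a row in every library. Other WRKY genes were not used here. Cells were sorted for green fluorescent protein (GFP) from Col-0 roots of 1 marker line per cell type, with GFP driven by the GL2 promoter (non-hair epidermis), the CORTEX promoter (cortex) and the enhancer trap E3754 (xylem-pole pericycle). Plants were 10 d old by the labels, while the methods of the paper give another age, and received flg22, a peptide of bacterial flagellin, Pep1, a plant peptide that signals damage, or water as mock. The series record gives 1 µM peptide and sampling after 2 h, whereas the sample labels give 1 mM and an incubation of 1 h. Each of the 9 combinations of cell type and treatment label had 3 libraries, numbered 1 to 3 in the titles, which makes 27. Each cell type came from 1 line, so that cell type and line cannot be told apart. Nothing in the labels says whether same-numbered libraries came from the same plants, and the p-values measure the spread between these libraries.

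WRKY proteins bind DNA through a domain named after its conserved amino acids, which holds a zinc finger and reads a short promoter element called the W-box. They are sorted into group I, with a pair of such domains, group II, with 1 domain and 5 subgroups from IIa to IIe, and group III, with 1 domain and another form of the zinc finger. In leaves, receptors for flg22 and Pep1 set off a cascade of mitogen-activated protein (MAP) kinases that leads to the activity and the transcription of several WRKY factors. Some members promote defence, such as WRKY33 in camalexin synthesis, and others restrain it, such as WRKY18, WRKY40 and WRKY60 or the related pair WRKY11 and WRKY17. Many WRKY genes hold W-boxes in their own promoters.

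Library depth was 4172741 to 17188823 gene counts, with 6340 to 63544 of these in the 56 members. Between 4 and 10 members had no read in a given library. The WRKY members varied with the replicate number more than with the treatment label. Of the variance of log2 CPM (read counts scaled to the size of the library) of a tested member, the number took a median of 63.9% among epidermal, 62.3% among cortex and 34.6% among pericycle libraries. The treatment label took 13.1%, 9.82% and 19.5%. Over all tested genes these medians were 32.3%, 30.9% and 22.2% for the number and 19.3%, 21.1% and 22.3% for the label, so that number and label took like shares over all genes of the pericycle. FRK1, a receptor kinase gene used as a marker of flg22 perception, went with the number too. In the epidermis it lay at 7.36, 10.4 and 10.3 CPM in the libraries numbered 1 and labelled mock, flg22 and Pep1, at 139, 137 and 110.0 CPM in those numbered 2 and at 28.1, 26.2 and 17.3 CPM in those numbered 3. PER4, a peroxidase gene of the same use, lay at 20.4, 19.6 and 25.7 CPM in the cortex libraries numbered 1, at 785, 609 and 537 CPM in those numbered 2 and at 768, 501 and 170.2 CPM in those numbered 3. For FRK1 in the epidermis and PER4 in the cortex the library labelled mock was the highest of its number under numbers 2 and 3. In the epidermis PER4 lay at 25.2, 80.2 and 18.6 CPM in number 1, 1381, 994 and 504 CPM in number 2 and 145, 386 and 237 CPM in number 3, so that mock was the highest there only in number 2, and flg22 was the highest in numbers 1 and 3. In the pericycle too mock was the highest for PER4 in number 2 and flg22 in numbers 1 and 3. No library was a near copy of another, since the mean squared difference of the closest pair was 8.54 times the counting variance. This pair was flg22 and Pep1 of epidermal number 2. The next pairs were flg22 and Pep1 of cortical number 1 (18.6 times) and of cortical number 3 (20.5 times). The 27 libraries lay in 7 sequencing pools by the numbers in their titles. Treatment labels followed the pools in part, with 6 of the 9 combinations within 1 pool, so that label and pool cannot be told apart fully. The combinations split over pools were cortex Pep1, pericycle Pep1 and epidermis mock, each with number 3 apart from numbers 1 and 2. Most pools held numbers 1, 2 and 3, yet number 3 and pool cannot be told apart fully either. The epidermis shared no pool with the other cell types, so its differences from them cannot be told apart from the pool.

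Markers fitted the cell type labels in part. All 3 non-hair epidermis markers passed as higher in epidermal than in cortex and pericycle libraries (edgeR adjusted p under 0.05), and all 3 pericycle markers were higher in the pericycle. Of 2 cortex markers, AT1G09750 was highest in the cortex, while AT1G62500 had a median of 0 CPM in each cell type. AT1G09750 is the gene of the CORTEX promoter, and GL2 is among the non-hair markers. The promoters of both drove the GFP used for sorting, so these genes are no independent check of the sort. Markers of other cells were present too. All 3 root cap markers were higher in the epidermis than in both others, 3 of 5 tested xylem and phloem markers were higher in the pericycle than in the cortex, and the 4 tested endodermis markers were lower in the epidermis than in the others. In sorted pools of cells, fewer cells of a type and less RNA per cell cannot be told apart. The part of these cells in the WRKY levels was not tested.

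The promoters of 6 members are shown because the comparisons below turn on them. WRKY15, WRKY30 and WRKY41 differed between numbers 3 and 1 in every cell type, WRKY29 had the largest log2 fold change of the epidermis, WRKY33 was among the most abundant members and WRKY8 stands for members without a match in this window, although it has 4 within 1000 bp. Each stretch is the 300 bp before the annotated transcript start (TAIR10.1 genome, RefSeq), 5′ to 3′ on the strand of the gene. Capitals mark the W-box, searched as TTGACC and TTGACT on both strands, so that GGTCAA and AGTCAA are matches on the other strand. A match is a description and not a known binding site.
WRKY15 (AT2G23320, chr2:9924586-9924885, plus strand): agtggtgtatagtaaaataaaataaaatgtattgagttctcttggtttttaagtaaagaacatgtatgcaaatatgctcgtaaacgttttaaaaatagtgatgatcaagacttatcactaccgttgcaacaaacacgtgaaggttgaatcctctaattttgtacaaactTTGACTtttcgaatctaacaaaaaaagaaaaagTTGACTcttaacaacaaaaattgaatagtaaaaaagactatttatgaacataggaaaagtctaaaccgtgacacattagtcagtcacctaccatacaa
WRKY30 (AT5G24110, chr5:8154711-8155010, minus strand): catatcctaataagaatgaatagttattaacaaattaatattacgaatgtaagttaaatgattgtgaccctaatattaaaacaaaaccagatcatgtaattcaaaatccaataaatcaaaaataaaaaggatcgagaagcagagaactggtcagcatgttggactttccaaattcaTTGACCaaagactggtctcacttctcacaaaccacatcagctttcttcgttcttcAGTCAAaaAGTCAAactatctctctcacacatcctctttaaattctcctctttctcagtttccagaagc
WRKY41 (AT4G11070, chr4:6758798-6759097, plus strand): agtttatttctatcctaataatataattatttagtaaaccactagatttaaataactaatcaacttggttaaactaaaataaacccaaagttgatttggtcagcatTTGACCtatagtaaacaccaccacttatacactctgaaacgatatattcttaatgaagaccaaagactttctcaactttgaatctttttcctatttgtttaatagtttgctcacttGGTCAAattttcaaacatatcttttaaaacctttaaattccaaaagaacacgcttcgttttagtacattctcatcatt
WRKY29 (AT4G23550, chr4:12291332-12291631, plus strand): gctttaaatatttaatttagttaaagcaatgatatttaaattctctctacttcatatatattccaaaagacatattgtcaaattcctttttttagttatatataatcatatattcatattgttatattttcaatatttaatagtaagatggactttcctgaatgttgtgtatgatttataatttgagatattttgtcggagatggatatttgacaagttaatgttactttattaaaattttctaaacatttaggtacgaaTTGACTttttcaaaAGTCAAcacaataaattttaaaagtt
WRKY33 (AT2G38470, chr2:16107935-16108234, plus strand): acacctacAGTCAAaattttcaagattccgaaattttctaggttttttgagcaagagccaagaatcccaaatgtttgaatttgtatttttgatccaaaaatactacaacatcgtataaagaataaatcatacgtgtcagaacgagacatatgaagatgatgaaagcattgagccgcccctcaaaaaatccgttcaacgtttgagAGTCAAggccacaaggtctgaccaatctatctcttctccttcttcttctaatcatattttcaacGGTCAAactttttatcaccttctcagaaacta
WRKY8 (AT5G46350, chr5:18804057-18804356, minus strand): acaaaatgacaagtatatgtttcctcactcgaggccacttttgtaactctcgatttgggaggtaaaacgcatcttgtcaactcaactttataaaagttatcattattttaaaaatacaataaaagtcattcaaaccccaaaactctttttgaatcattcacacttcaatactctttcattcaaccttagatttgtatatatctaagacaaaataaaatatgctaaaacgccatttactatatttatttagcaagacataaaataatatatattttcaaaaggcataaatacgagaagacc

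WRKY15 has both of its matches on the plus strand of the gene, 126 and 93 bp before the start. In WRKY30 there are 3 matches within 119 bp of the start, and the 2 nearest lie 64 and 56 bp away on the opposite strand. WRKY41 has 1 match 189 bp and 1 match 73 bp away, on opposite strands. Over the 56 members, 41.1% of these 300-bp stretches held at least 1 W-box and 17.9% held 2 or more. Over the promoters of all 27444 nuclear protein-coding genes in the tables, the shares were 32.3% and 7.91%. In stretches of 1000 bp, 76.8% of the members and 67.3% of all genes held a match, and 55.4% and 33.1% held 2 or more. These shares are descriptions, and no test was made of them.

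Per unit of length, WRKY40 and WRKY33 led the family in all 3 cell types. In the epidermis WRKY33 lay at 553 ± 216 CPM per kb of exon (SD, n = 9) and WRKY40 at 358 ± 135 CPM per kb. WRKY72, a factor of basal defence against nematodes and oomycetes, came next there at 279.9 ± 113 CPM per kb. WRKY40 lay at 626 ± 142 CPM per kb in cortex libraries and WRKY33 at 348 ± 92.2 CPM per kb. Their pericycle levels were 403 ± 128 and 238 ± 92.6 CPM per kb. The next pair of members in each cell type differed by less than the larger of its SDs. They were WRKY6 with 236 ± 68.1 and WRKY65 with 195 ± 67.6 CPM per kb in the epidermis, WRKY6 with 209 ± 69.2 and WRKY51 with 204 ± 73.7 CPM per kb in the cortex, and WRKY46 with 157 ± 31.2 and WRKY18 with 112 ± 60.7 CPM per kb in the pericycle. The 8 leading members made up 65.1% (epidermis), 68.2% (cortex) and 57.8% (pericycle) of the summed level per kb of the family. At the other end, WRKY12, WRKY24, WRKY34, WRKY43, WRKY55 and WRKY68 passed the filter on low counts in no cell type, and WRKY12 had no read in any library. Of the 56 members, 44 (epidermis), 47 (cortex) and 48 (pericycle) were tested, 43 of them everywhere.

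**Figure D1:**
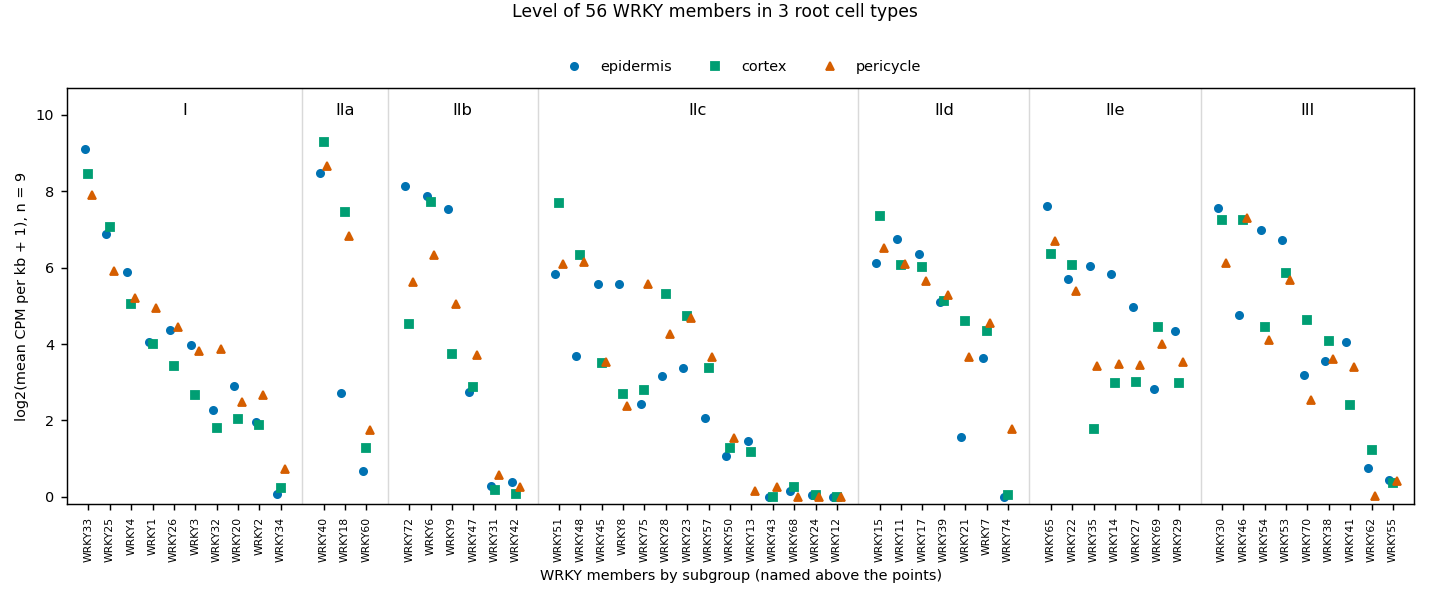
Mean level of each of the 56 members in the epidermis, cortex and pericycle on the scale log2(CPM per kb + 1), over 9 libraries per cell type, with members sorted within their subgroup by the highest of their 3 levels. WRKY40 and WRKY33 top the family, and members such as WRKY72, WRKY9, WRKY18 and WRKY75 lie far apart between cell types.

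Between the treatment labels, 1 member in 1 cell type passed the test. The comparison asks whether libraries labelled flg22 or Pep1 differ from those labelled mock within a cell type. With edgeR's quasi-likelihood test and the replicate number as a block, no member was called between flg22 and mock in epidermal (2 members at an unadjusted p under 0.05), cortex (3 members) or pericycle libraries (2 members), nor was any of the 16516, 17193 and 18693 genes tested (0%). An unadjusted p under 0.05 was found for 276, 925 and 1302 of these genes in the same order. DESeq2 called no member in these comparisons either. Between Pep1 and mock the counts were 0 in the epidermis (1 member at an unadjusted p under 0.05) and 0 in the pericycle (2 members, beside 0.0267% of all genes, all of them higher), with no call by DESeq2. In the cortex 1 member was called, beside 0.32% of all genes in either direction and 0.0523% higher, and DESeq2 called 2. Of all genes, 97 in the epidermis and 567 in the pericycle had an unadjusted p under 0.05 between Pep1 and mock. How many of all genes DESeq2 called is not given, so its counts of members are not shown to be particular to the family. Between Pep1 and flg22 no member was called in any cell type by either tool, with 5, 3 and 0 members at an unadjusted p under 0.05. Of all genes, 1180, 1060 and 890 had such a p. The paper, which used DESeq2 with a batch term, reports genes that responded to each peptide in every cell type. Among them it names WRKY8 (flg22) and WRKY22 (Pep1) for the cortex and WRKY33 (Pep1) for the epidermis. The cause of this difference from the paper was not tested.

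The member called was WRKY46, a group III factor of salicylic acid responses that is close kin to WRKY54 and WRKY70. In the cortex it lay at 141, 124 and 142 CPM in the libraries labelled mock and numbered 1, 2 and 3, at 209, 172 and 200.4 CPM in those labelled flg22 and at 266, 312 and 283 CPM in those labelled Pep1. The Pep1 libraries were above all mock libraries, with a log2 fold change of 1.13 ± 0.19 (SE) and an edgeR adjusted p of 0.0382. The call was lost without a replicate block, with an adjusted p of 0.156, and with the sequencing pool as a further term, with an adjusted p of 0.937, although the log2 fold change stayed between 1.02 and 1.24 over all alternatives. Without mock 1, 2 or 3, Pep1 1, 2 or 3, or flg22 3, no member was called. In the epidermis WRKY46 was low throughout, at 10.2, 31.4 and 66.4 CPM (lowest, median and highest of 9 libraries), and in the pericycle at 152, 200.3 and 291 CPM.

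Between replicate numbers, 22 of the 56 members passed the test in at least 1 cell type. Of these, 8 were called higher than number 1 in both numbers 2 and 3, 5 in number 2 alone and 5 in number 3 alone. The share of all genes called in any of these comparisons is not given. These counts over several comparisons are thus not shown to be particular to the family. Shares of all genes follow for each comparison. In the epidermis 8 of 44 members were higher in number 2 than in number 1, beside 1.7% of all genes tested, and none was lower (0.0242%). In the cortex it was 10 of 47 members, beside 1.62% of genes (1.83% in either direction), and none lower (0.209%). In the pericycle edgeR called no member here, beside 0.102% of genes, while 7 members had an unadjusted p under 0.05 and DESeq2 called 4. Of all 18693 genes tested there, 672 had an unadjusted p under 0.05, and how many DESeq2 called is not given. For number 3 with number 1, members called higher were 8 of 44 among epidermal libraries (3.58% of all genes, 5.38% in either direction), 11 of 47 in cortex libraries (6.41%, 11.7%) and 3 of 48 in pericycle libraries (0.503%, 0.658%). Only in the cortex were members called lower, 2 of 47 beside 5.25% of genes, against 1.8% in the epidermis and 0.155% in the pericycle. For number 3 with number 2, the epidermis had 1 member lower (0.0666%, 0.0969% in either direction) and none higher (0.0303%), and the cortex had 1 higher (0.954%) and 6 lower (0.989%, 1.94% in either direction). No member was called there in the pericycle, where 0% of genes were called, 4 members had an unadjusted p under 0.05 and DESeq2 called none. Of all genes, 852 had an unadjusted p under 0.05 in that comparison. The median log2 fold change of the tested members for number 3 with number 1 was 0.47 (epidermis), 0.35 (cortex) and 0.40 (pericycle), beside 0.01, -0.01 and -0.04 over all genes tested. Lists of cell type markers had negative medians in this comparison, those of the sorted type included, at -1.12 over 3 non-hair markers in the epidermis, -0.48 for the cortex marker in the cortex and -0.71 over 3 pericycle markers in the pericycle. In the cortex the median was -2.67 over 4 endodermis markers, -2.12 over 3 pericycle markers and -1.74 over 3 root cap markers, with none called, and -0.82 over 3 non-hair epidermis markers, with 1 called lower. The 3 root cap markers had a median of -0.90 in the epidermis and -1.75 in the pericycle, with none called. Their part in the result was not tested.

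Several of these counts changed when a single library was left out. The counts of all genes in these fits are not given, so the changes are not shown to be particular to the family. Between numbers 2 and 1, the epidermis count fell from 8 to 1 without mock 1, to 3 without Pep1 1 or Pep1 2, and to 5 without mock 2, flg22 1 or flg22 3. The cortex count fell from 10 to 4 without flg22 1, to 5 without mock 2 and to 6 without Pep1 2. Between numbers 3 and 1, the epidermis count fell from 8 to 5 without mock 1, and the pericycle count from 3 to 1 without mock 1, flg22 1, Pep1 1, flg22 3 or Pep1 3. Between numbers 3 and 2, the cortex count fell from 7 to 0 without mock 2, Pep1 2 or Pep1 3, to 1 without mock 3 and to 2 without flg22 3. The 1 call of the epidermis between numbers 3 and 2 was lost without mock 1, mock 2, flg22 1, flg22 3, Pep1 2 or Pep1 3, and became 3 without Pep1 1. The cortex count between numbers 3 and 1 was 11 to 14 whichever library was left out. A plainer count gave the same direction. All 3 libraries numbered 3 lay above all 3 numbered 1 for 18 of 44 members (13.1% of all genes) in epidermal, 16 of 47 (16% of genes) in cortex and 8 of 48 (6.49% of genes) in pericycle libraries. The reverse held for 3 epidermal members (11.6% of genes), 3 cortex members (12%) and no pericycle member (7.05%).

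**Figure D2:**
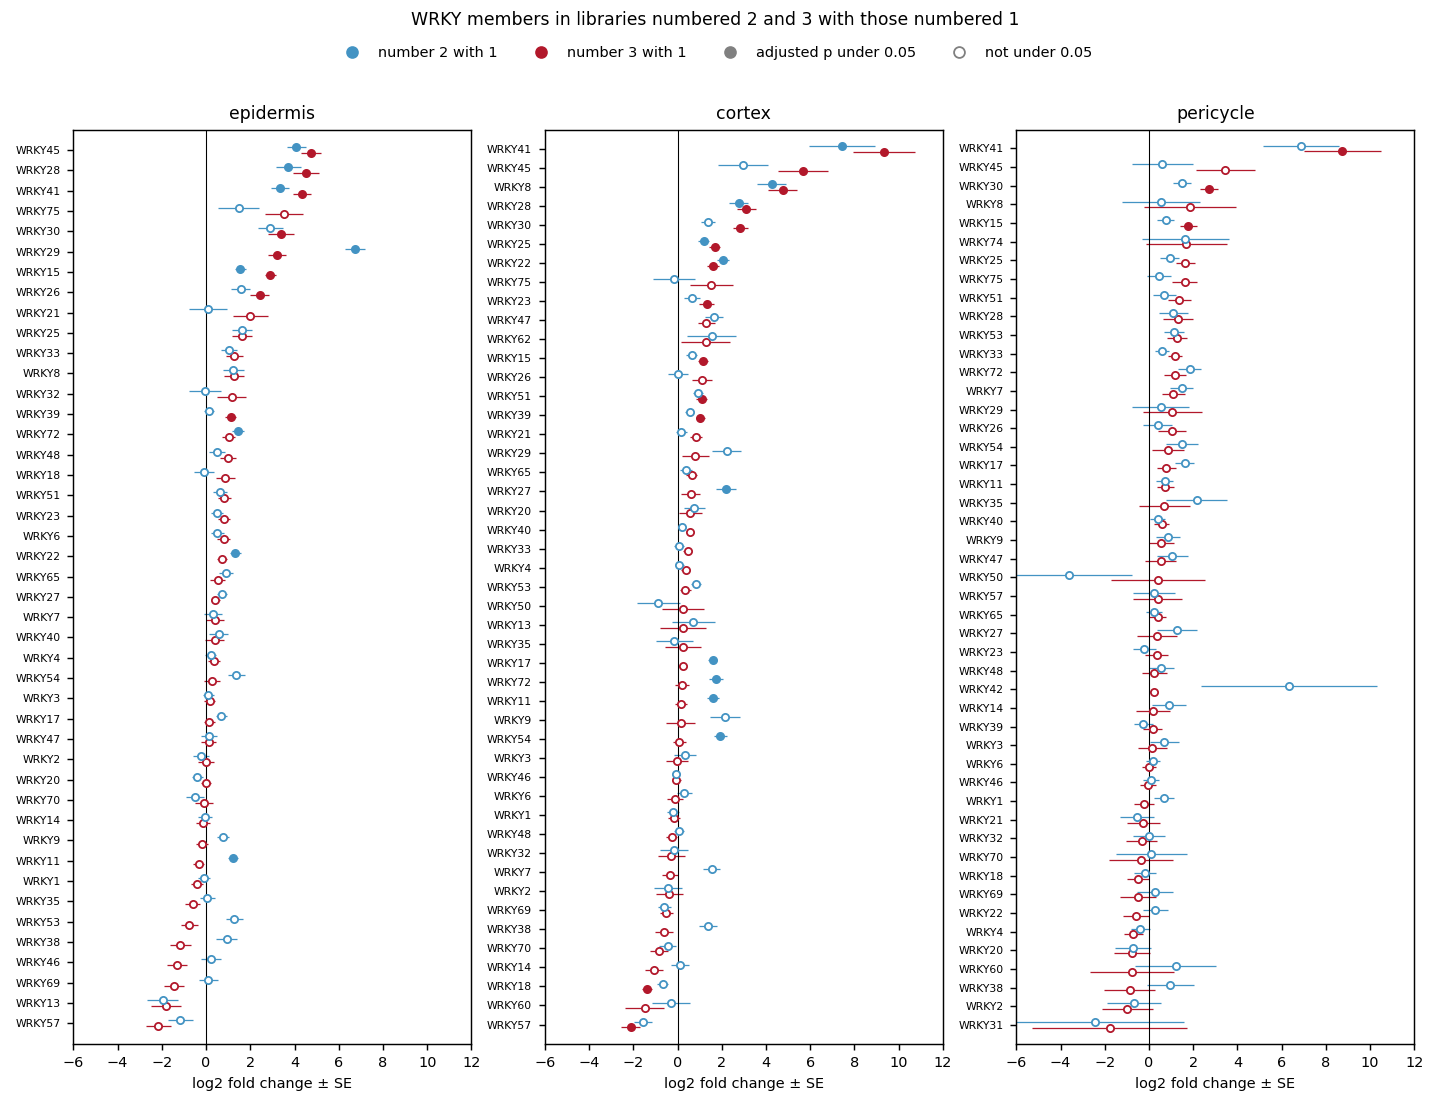
Log2 fold change ± SE (edgeR) of every tested member in the libraries numbered 2 (blue) and 3 (red) with those numbered 1, per cell type, 3 libraries per number, with filled points at an adjusted p under 0.05. Most filled points lie to the right of 0, in the pericycle only WRKY15, WRKY30 and WRKY41 are filled, both comparisons share the libraries numbered 1, and SEs of 5 or more are not drawn.

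WRKY15, WRKY30 and WRKY41 were called higher in number 3 than in number 1 in all 3 cell types. WRKY15, of subgroup IId and known from growth and oxidative stress, lay in the epidermis at 27.1, 21.0 and 20.3 CPM in the libraries numbered 1 and labelled mock, flg22 and Pep1, at 71.9, 81.5 and 51.7 CPM in those numbered 2 and at 218, 142 and 159.9 CPM in those numbered 3. The numbers did not overlap there. Number 2 was higher than number 1 by 1.55 ± 0.24 on the log2 scale (edgeR adjusted p = 0.0172), a call lost without mock 1, flg22 1, Pep1 1 or Pep1 2 (largest adjusted p = 0.148). The log2 fold change between numbers 3 and 1 was 2.89 ± 0.25 (SE, edgeR adjusted p = 0.000904). In the cortex its libraries numbered 1 lay at 97.7 to 139.8 CPM and those numbered 3 at 218 to 388 CPM, with a log2 fold change of 1.16 ± 0.24 (adjusted p = 0.00901). In the pericycle the ranges were 37.8 to 70.8 and 102 to 261 CPM and the log2 fold change was 1.77 ± 0.39 (adjusted p = 0.0375). This last call was lost with any of mock 1, mock 2, mock 3, flg22 1, flg22 3, Pep1 1 or Pep1 3 left out (largest adjusted p = 0.247), with no change of direction.

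WRKY30 belongs to group III and is known from oxidative stress. In the cortex it lay at 37.3, 37.1 and 89.6 CPM in number 1, at 134, 155 and 119 CPM in number 2 and at 501, 319 and 355 CPM in number 3, again in the order mock, flg22 and Pep1. Every library of number 3 was above every library of number 2, and every one of those above number 1. The log2 fold change between numbers 3 and 1 was 2.84 ± 0.33 (edgeR adjusted p = 0.000317) and between numbers 3 and 2 1.45 ± 0.31 (adjusted p = 0.0398). In the epidermis the levels were 34.7, 86.2 and 12.7 CPM in number 1, 502, 263 and 162 CPM in number 2 and 373, 379 and 380.2 CPM in number 3, so that the highest single library was one labelled mock. There the log2 fold change between numbers 3 and 1 was 3.38 ± 0.60 (adjusted p = 0.0153), and without mock 1 the adjusted p was 0.132. In the pericycle it was 2.72 ± 0.42 (adjusted p = 0.00167), with 19.8 to 28.4 CPM in number 1 and 98.8 to 206 CPM in number 3.

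WRKY41, also of group III and a relative of WRKY53, had hardly any reads in number 1 outside the epidermis. In the cortex it had no read in the 3 libraries numbered 1, lay at 3.84, 7.01 and 0.636 CPM in number 2 and at 11.7, 11.5 and 11 CPM in number 3. Against a floor of 3 counts over the libraries numbered 1, the level was at least 17.6-fold higher in number 2 and at least 53.8-fold higher in number 3. The edgeR adjusted p-values were 0.0388 and 0.00243. In the pericycle a single read fell in number 1, and the libraries numbered 3 lay at 12.5, 65.1 and 6.85 CPM. The ratio of summed levels there was 578, with an exact 95% counting interval from 103 to 22872 that covers counting error only, and the adjusted p was 0.0191. Leaving out mock 1, flg22 1, flg22 3, Pep1 1 or Pep1 3 took this p above 0.05 (largest 0.284). In the epidermis WRKY41 was detected in every library, at 1.90, 2.33 and 1.17 CPM in number 1, 15.6, 21.1 and 16.4 CPM in number 2 and 47.9, 23.5 and 35.8 CPM in number 3, with a log2 fold change of 4.33 ± 0.42 between numbers 3 and 1 (adjusted p = 0.00164). WRKY41 shares 491 of its 1178 exon bases with AT4G11080 on the opposite strand, and reads were counted without strand. AT4G11080 itself lay at 8.91 to 33.5 CPM in epidermal number 1 and at 13.1 to 29.1 CPM in number 3, and at 0.296 to 3.50 and 2.02 to 3.66 CPM in the cortex. In the pericycle it lay at 2.99 to 11.7 CPM in number 1 and at 5.49 to 37.4 CPM in number 3. Reads of the shared part cannot be told apart between both genes. The counts also hold an entry for ambiguous reads, with 2.82 to 5.55% of all counts in a library. Whether reads of the shared part fell there was not tested.

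Further members of subgroup IIc, WRKY8, WRKY28 and WRKY45, were called in 1 or 2 cell types. WRKY28, a factor that binds the promoter of the salicylic acid synthesis gene ICS1, lay in the cortex at 4.02, 10.5 and 17.1 CPM in number 1, at 64.6, 79.7 and 60.7 CPM in number 2 and at 112, 91.5 and 61.8 CPM in number 3. Its log2 fold change between numbers 3 and 1 was 3.11 ± 0.44 in the cortex (edgeR adjusted p = 0.000985) and 4.50 ± 0.58 in the epidermis (adjusted p = 0.00452). Without mock 1 the epidermal p was 0.0602. For number 2 with 1 it had 3.72 ± 0.58 in the epidermis (adjusted p = 0.0174, at most 0.155 without mock 1, Pep1 1 or Pep1 2). WRKY45, known from phosphate uptake and leaf senescence, lay in the epidermis at 2.12, 8.91 and 2.70 CPM in number 1 and at 43.0, 203 and 115 CPM in number 3, a log2 fold change of 4.74 ± 0.44 (adjusted p = 0.00128). Between numbers 2 and 1 the epidermal adjusted p was 0.00400 for WRKY45 and 0.00816 for WRKY41, and without mock 1 it was 0.0639 and 0.0999. In the cortex it was at 0, 0 and 2.07 CPM in number 1, at 5.12, 7.53 and 2.07 CPM in number 2 and at 69.4, 27.6 and 11.7 CPM in number 3. WRKY8, known from defence against viruses and fungi, was near 0 in cortical number 1 with 0.694, 0.584 and 0 CPM and at 7.79 to 10.4 CPM in number 2 and 10.1 to 16.8 CPM in number 3. Its edgeR adjusted p-values there were 0.00617 and 0.000932. In the epidermis, where WRKY8 was highest, its numbers overlapped, with 14.9 to 58.1 CPM in number 1 and 44.5 to 113 CPM in number 3 (adjusted p = 0.164).

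**Figure D3:**
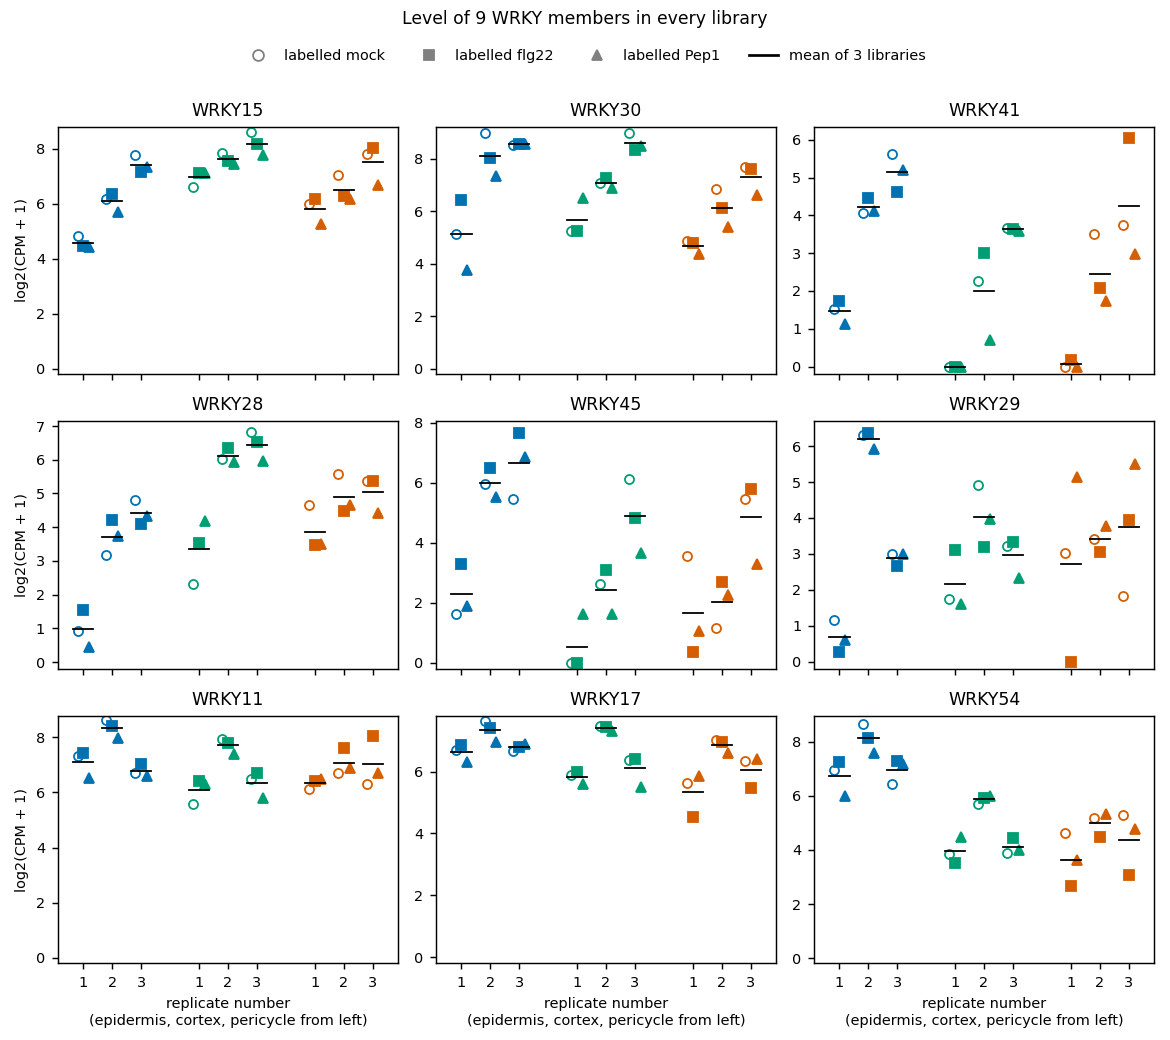
Level of 9 members in each of the 27 libraries on the scale log2(CPM + 1), by cell type (epidermis blue, cortex green, pericycle orange) and replicate number, with the treatment label as the symbol and the mean of 3 libraries as a bar. The bars of WRKY15, WRKY30 and WRKY41 are highest in number 3 in each cell type, and those of WRKY11, WRKY17 and WRKY54 in the cortex are highest in number 2.

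WRKY29 showed the steepest difference between numbers 2 and 1 in the epidermis. This subgroup IIe factor and WRKY22 are known from flagellin signaling in leaf cells. In the epidermis WRKY29 lay at 1.23, 0.212 and 0.510 CPM in number 1, at 78.6, 82.1 and 60.1 CPM in number 2 and at 6.95, 5.28 and 7.01 CPM in number 3. The numbers did not overlap, and number 2 stood above the others under each label. The log2 fold change was 6.73 ± 0.44 between numbers 2 and 1 (edgeR adjusted p = 0.00137), 3.21 ± 0.42 between 3 and 1 (adjusted p = 0.00475) and -3.52 ± 0.35 between 3 and 2 (adjusted p = 0.0278). In the cortex its levels were 2.07 to 7.59 CPM in number 1 and 8.21 to 29.2 CPM in number 2, which did not overlap but missed the threshold (adjusted p = 0.140), and in the pericycle they ran from 0 to 44.6 CPM with no order by number. WRKY29 shares 251 of its 1393 exon bases with AT4G23560 on the opposite strand, which lay at 1.17 to 2.37 CPM in epidermal number 2. WRKY22 lay in the cortex at 24.1, 42.6 and 29.0 CPM in number 1, 134, 138 and 121 CPM in number 2 and 125, 114 and 66.3 CPM in number 3. Numbers 2 and 3 overlapped with each other and both were above number 1. The log2 fold changes were 2.05 ± 0.26 for number 2 (adjusted p = 0.00131) and 1.61 ± 0.26 for number 3 (adjusted p = 0.00190) with number 1.

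A further set of members was called higher in number 2 than in number 1 and not in number 3 with number 1. These were WRKY11, WRKY17, WRKY27, WRKY54 and WRKY72. WRKY17, which with its kin WRKY11 limits basal defence in leaves, lay in the cortex at 58.4, 63.0 and 47.6 CPM in number 1, at 177, 171 and 156 CPM in number 2 and at 82.5, 84.2 and 44.5 CPM in number 3. Numbers 1 and 3 overlapped and number 2 was apart from both. The log2 fold change was 1.58 ± 0.21 between 2 and 1 (edgeR adjusted p = 0.00215) and -1.35 ± 0.21 between 3 and 2 (adjusted p = 0.0119). WRKY11 lay at 46.3, 84.0 and 77.1, then 244, 219 and 169, then 88.0, 102 and 55.1 CPM in cortical numbers 1, 2 and 3, with -1.44 ± 0.26 between 3 and 2 (adjusted p = 0.0216). WRKY54, which acts with WRKY70 in salicylic acid signaling, lay at 13.5, 10.5 and 21.6, then 51.2, 59.0 and 63.1, then 13.7, 20.6 and 14.8 CPM, with 1.94 ± 0.30 between 2 and 1 (adjusted p = 0.00563). WRKY72 and WRKY38 were lower in number 3 than in number 2 of the cortex, with log2 fold changes of -1.52 ± 0.30 and -2.00 ± 0.40 (adjusted p = 0.0306 and 0.0306). Each of these calls between numbers 3 and 2 was lost with the sequencing pool as a further term (adjusted p from 0.0681 to 0.167) and none of the cortex was called without Pep1 2, Pep1 3 or mock 2. In the epidermis WRKY11 had the same shape with 90.1 to 173, 252 to 393 and 96.8 to 131 CPM, with an adjusted p of 0.0499 between 2 and 1.

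The group I members WRKY25, WRKY26 and WRKY33 are known from heat and defence responses. WRKY33 lay in the epidermis at 619.8, 993 and 293 CPM in number 1, at 1064, 1418 and 1262 CPM in number 2 and at 1329.7, 1708 and 1412 CPM in number 3. All libraries numbered 2 and 3 were above those numbered 1, yet the edgeR adjusted p was 0.368 for number 2 and 0.0944 for number 3. In the cortex its numbers overlapped, with 501 to 657 CPM in number 1 and 590.0 to 1071 CPM in number 3. WRKY25 was called in the cortex, at 62.6 to 153 CPM in number 1, 226 to 259 CPM in number 2 and 321 to 409 CPM in number 3, with a log2 fold change of 1.68 ± 0.24 between 3 and 1 (adjusted p = 0.00106). WRKY26 was called in the epidermis, with 5.25 to 13.3 CPM in number 1 and 36.7 to 71.5 CPM in number 3 (log2 fold change 2.43 ± 0.42, adjusted p = 0.0141). Without flg22 1 or flg22 3 the call of WRKY26 was lost (largest adjusted p = 0.0901). WRKY39, of subgroup IId and known from heat, was higher in number 3 by 1.03 ± 0.21 in the cortex (adjusted p = 0.00743) and by 1.11 ± 0.23 in the epidermis (adjusted p = 0.0312), a call lost without mock 1, flg22 1, flg22 3 or any Pep1 library (largest adjusted p = 0.189). WRKY51 and WRKY23, both of subgroup IIc, were higher in number 3 of the cortex by 1.09 ± 0.24 and 1.31 ± 0.35 (adjusted p = 0.0114 and 0.0311).

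Only WRKY18 and WRKY57 were called lower in number 3 than in number 1, both in the cortex. These 2 of 47 members are near the share of all genes called lower there, 5.25%. WRKY18 belongs with WRKY40 and WRKY60 to subgroup IIa, whose members form complexes with each other and restrain defence. It lay in the cortex at 417, 611 and 552 CPM in number 1, at 362, 259 and 364 CPM in number 2 and at 203, 272 and 163 CPM in number 3. The number 3 libraries were all below the number 1 libraries, with a log2 fold change of -1.38 ± 0.24 (edgeR adjusted p = 0.00341). WRKY40 lay at 507 to 792 CPM in number 1 and 922 to 1176 CPM in number 3, with a log2 fold change of 0.55 ± 0.19 that did not pass (adjusted p = 0.0816). WRKY60 was at 6.98 CPM or less in every library. WRKY57, known from drought and leaf senescence, lay at 17.5, 50.2 and 45.5 CPM in number 1 and at 8.32, 5.97 and 11.5 CPM in number 3 of the cortex, a log2 fold change of -2.12 ± 0.43 (adjusted p = 0.00764). In the epidermis its log2 fold change was -2.16 ± 0.57 (adjusted p = 0.0682).

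By subgroup, calls for number 3 with number 1 are given as counts, with no test between subgroups. In the cortex, where 6.41% of all genes were higher and 5.25% lower, 5 of 10 tested members of subgroup IIc were higher and 1 was lower, 2 of 6 in IId, 2 of 8 in group III, 1 of 9 in group I and 1 of 7 in IIe were higher, 1 of 3 in IIa was lower, and none of 4 in IIb was called. In the epidermis (3.58% of all genes higher) 2 of 9 in IIc, 2 of 6 in IId, 2 of 7 in group III, 1 of 9 in group I and 1 of 7 in IIe were higher. In the pericycle (0.503% higher) 2 of 7 members of group III and 1 of 7 of IId were higher. Median log2 fold changes over the tested IIc members were 0.98 (epidermis), 1.20 (cortex) and 1.32 (pericycle), where none of 9 was called. The other medians follow in the same order. They were 0.36, 0.37 and -0.23 for group I, 0.63, -1.38 and -0.48 for IIa, and 0.45, 0.18 and 0.38 for IIb. For IId they were 0.76, 0.53 and 0.78, for IIe 0.42, 0.59 and 0.38, and for group III -0.08, 0.22 and 0.85. Over all 13 members higher in number 3 than 1 in any cell type, 8 held a W-box in the 300 bp before their start and 5 held 2 or more. All 13 held one within 1000 bp. Among the 38 members called higher in neither number 2 nor number 3, 12 held one within 300 bp and 26 within 1000 bp. These members were picked by their values, so the shares carry no test.

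**Figure D4:**
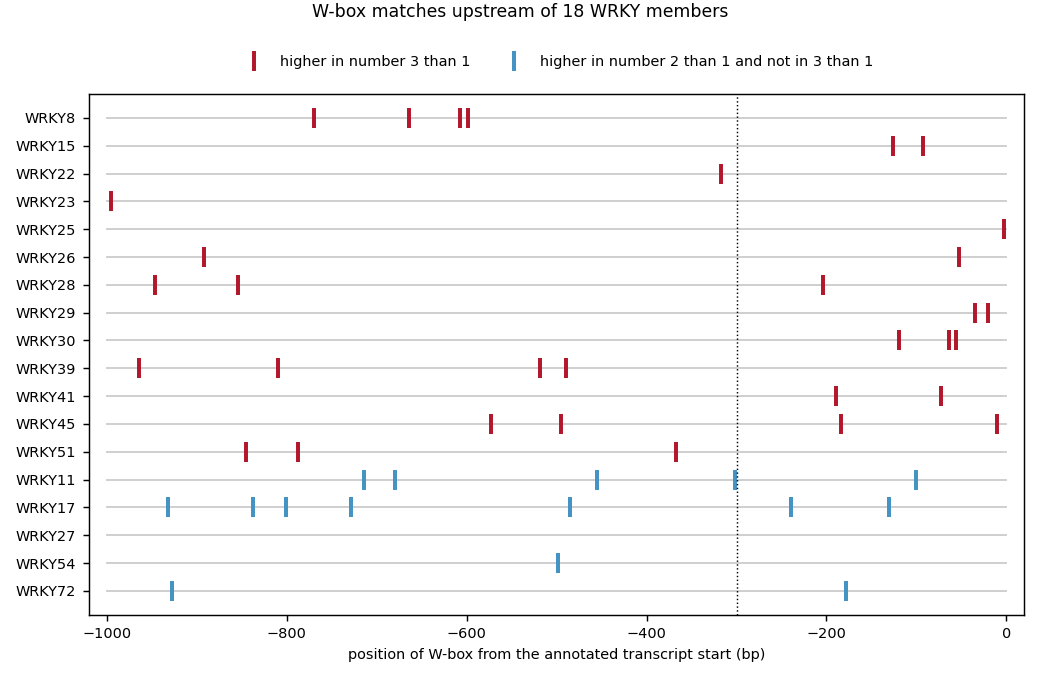
Positions of W-box matches in the 1000 bp before the annotated transcript start of 18 members, in bp on the horizontal axis, with a dotted line at 300 bp. Red marks belong to the 13 members higher in number 3 than in number 1 in any cell type, and blue marks to the 5 members called higher only in number 2. WRKY27 has no match in this window, and the matches of WRKY15, WRKY29, WRKY30 and WRKY41 all lie within 300 bp.

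Differences between cell types in these contrasts were tested by an interaction term over all 27 libraries, with 52 members tested. edgeR called no member for flg22 with mock (1 member at an unadjusted p under 0.05, smallest adjusted p = 0.293), Pep1 with mock (2 members, 0.520), number 2 with 1 (6 members, 0.457) or number 3 with 1 (8 members, 0.425). Of all 19804 genes tested, edgeR called 9, 0, 1 and 1 in the same order. An unadjusted p under 0.05 was found for 1313, 1099, 1001 and 1217 of them. DESeq2 called WRKY54, WRKY32 and WRKY29 in the first 3 of these comparisons, and WRKY15 and WRKY28 in the last. Over all genes DESeq2 called 269, 129, 82 and 143. A contrast that passed in 1 cell type and not in another is thus not shown to differ between them by edgeR.

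Cell types were compared over 9 libraries each, with all labels together and with number and label as further terms. Between epidermis and cortex 29 of 48 tested members were called (39.6% of all genes), 17 higher in the epidermis (19.3%) and 12 lower (20.3%). Between epidermis and pericycle it was 35 members (46% of genes), 19 higher in the epidermis (22.4%) and 16 lower (23.5%), and between cortex and pericycle 21 (43.2%), 10 higher in the cortex (20.8%) and 11 lower (22.4%). The share of members called between cortex and pericycle was close to that of all genes. In the libraries labelled mock alone the counts of members were 17, 17 and 2. The shares of all genes called in that fit are not given, so this fall is not shown to be particular to the family.

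Higher in the epidermis than in both others were 13 members, among them WRKY72, WRKY9, WRKY35, WRKY14, WRKY8 and WRKY54. The share of all genes that differed in this way from both other cell types is not given. The sizes of such sets of members, here and below, are thus not shown to be particular to the family. WRKY72 lay at 217, 597 and 829.6 CPM in epidermal libraries (lowest, median and highest of 9), at 12.7, 36.5 and 91.2 CPM in cortex libraries and at 16.6, 95.8 and 199 CPM in pericycle libraries. The epidermal range was above both others. The log2 difference was 3.75 ± 0.25 from the cortex and 2.56 ± 0.24 from the pericycle (edgeR adjusted p = 1.70e-12 and 6.43e-10). WRKY9, of the same subgroup IIb, lay at 245 ± 89.4 CPM (SD, n = 9) in epidermal, 16.3 ± 13.0 CPM in cortex and 42.3 ± 18.2 CPM in pericycle libraries. In subgroup IIe, WRKY35 had 121 ± 41.4, 4.52 ± 3.79 and 18.2 ± 16.8 CPM and WRKY14 112 ± 31.5, 14 ± 7.68 and 20.2 ± 8.37 CPM in the same order. WRKY8 lay at 14.9, 58.2 and 117 CPM in the epidermis and at 0, 8.20 and 16.8 CPM in the cortex (log2 difference 3.45 ± 0.57, adjusted p = 1.51e-05), where the ranges overlapped slightly. WRKY54 was higher in the epidermis by 2.93 ± 0.31 on the log2 scale than in the pericycle (adjusted p = 5.76e-09), and WRKY45 by 2.85 ± 0.66 than in the cortex (adjusted p = 0.000934), a call lost in the libraries labelled mock alone (adjusted p = 0.478) and without the replicate block (0.0578). The root cap markers were higher in the epidermis as well, and their part in these levels was not tested.

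Lower in the epidermis than in both others were 9 members, with WRKY18 at the head. WRKY18 lay at 4.59, 10.9 and 18.7 CPM in epidermal, at 163, 362 and 611 CPM in cortex and at 95.8, 239 and 473 CPM in pericycle libraries. Every epidermal library was below every other library. The log2 difference was -4.93 ± 0.36 from the cortex (edgeR adjusted p = 9.26e-12) and -4.30 ± 0.35 from the pericycle (adjusted p = 3.84e-11). Its partner WRKY40 was at 474 ± 179 CPM (SD) in epidermal, 829 ± 188 CPM in cortex and 534 ± 169.6 CPM in pericycle libraries. WRKY46 was lower in the epidermis than in the cortex with a log2 difference of -2.61 ± 0.27 (adjusted p = 9.61e-09), and WRKY48, a repressor of basal defence, with -2.79 ± 0.30 (adjusted p = 1.51e-08). WRKY21 had 4.11 ± 4.35 CPM in the epidermis and 49.2 ± 17.2 CPM in the cortex, WRKY28 11.5 ± 9.35 and 55.8 ± 37.8 CPM, and WRKY69 7.60 ± 3.87 and 25.8 ± 7.32 CPM. WRKY57 was lower in the epidermis than in the pericycle with a log2 difference of -2.21 ± 0.50 (adjusted p = 0.000598).

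Higher in the pericycle than in both others were WRKY1, WRKY32, WRKY47, WRKY74 and WRKY75. WRKY75, known from phosphate starvation and root hair growth, lay at 13.5, 29.9 and 87.1 CPM in pericycle, 0.832, 2.91 and 17.2 CPM in cortex and 0.0729, 2.05 and 16.3 CPM in epidermal libraries. The log2 difference was -3.08 ± 0.46 for cortex with pericycle (edgeR adjusted p = 5.29e-06) and -4.00 ± 0.49 for epidermis with pericycle (adjusted p = 8.92e-08). The lowest pericycle library overlapped with the highest of the others. WRKY32 had 24.0 ± 7.97 CPM in the pericycle against 4.37 ± 3.44 CPM in the cortex. WRKY3, WRKY9, WRKY35 and WRKY72 were also lower in the cortex than in the pericycle, with log2 differences from -1.19 ± 0.23 (WRKY72) to -2.00 ± 0.55 (WRKY35). Xylem and phloem markers were higher in the pericycle libraries too, and their part was not tested.

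Highest in the cortex, against both others, were WRKY15, WRKY40, WRKY51 and WRKY70. WRKY70, a factor at the meeting point of salicylic acid and jasmonate signaling, lay at 14.9, 35.5 and 53.1 CPM in cortex, 7.90, 10.3 and 24.2 CPM in epidermal and 0.735, 5.04 and 21.7 CPM in pericycle libraries. It was higher in the cortex than in the pericycle by 2.45 ± 0.42 on the log2 scale (edgeR adjusted p = 2.80e-05). WRKY51, which takes part in the repression of jasmonate responses, had 193 ± 69.8 CPM in cortex, 52.7 ± 15.6 CPM in epidermal and 64.4 ± 38.8 CPM in pericycle libraries. WRKY6, a repressor of the phosphate exporter gene PHO1, was lower in the pericycle, at 183 ± 30.2 CPM, than in the cortex at 484 ± 160.5 CPM (log2 difference 1.41 ± 0.20, adjusted p = 1.99e-06) and the epidermis at 547 ± 158 CPM. WRKY25, WRKY30 and WRKY15 were higher in the cortex than in the pericycle by 1.17 ± 0.23, 1.17 ± 0.29 and 1.00 ± 0.21 (adjusted p = 0.000130, 0.00187 and 0.000322). In the libraries labelled mock alone the cortex and pericycle calls of WRKY3, WRKY6, WRKY9, WRKY15, WRKY25, WRKY30, WRKY32, WRKY35, WRKY70 and WRKY72 were lost (adjusted p from 0.0648 to 0.335), and those of WRKY15 and WRKY30 also without the replicate block (0.0903 and 0.104). WRKY2, WRKY22, WRKY29, WRKY38, WRKY39 and WRKY50 were called between no pair of cell types.

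Genes around the WRKY factors were followed as lists. Of 9 genes of the MAP kinase cascade, 1 epidermal, 3 cortex and no pericycle member was higher in number 3 than in number 1, beside 3.58%, 6.41% and 0.503% of all genes tested. The medians of the list were 0.44, 0.70 and 0.03 on the log2 scale. MPK3, a MAP kinase that phosphorylates WRKY33, lay in the epidermis at 189, 204 and 95.2 CPM in number 1, 283, 252 and 219 CPM in number 2 and 645, 662 and 612 CPM in number 3 (log2 fold change 2.00 ± 0.29, edgeR adjusted p = 0.00741). In the cortex MPK3 (1.06 ± 0.23, adjusted p = 0.0107), MPK6 (0.70 ± 0.19, adjusted p = 0.0340) and MKK9 (0.98 ± 0.27, adjusted p = 0.0396) were called. MEKK1, a kinase at the head of the cascade, had 0.74 ± 0.26 there (adjusted p = 0.0888).

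VQ proteins bind WRKY factors and modulate them. Of 4 tested genes of this list 1 was called higher in number 3 with 1 for epidermal libraries, 3 for cortex and none for pericycle libraries (3.58%, 6.41% and 0.503% of all genes), with list medians of 0.98, 2.08 and 1.15 on the log2 scale. JAV1, a VQ repressor of jasmonate defence, lay in the cortex at 1.25, 0.584 and 2.36 CPM in number 1, 8.07, 10.1 and 3.02 CPM in number 2 and 22.6, 15.2 and 10.8 CPM in number 3 (log2 fold change 3.41 ± 0.65, edgeR adjusted p = 0.00582). SIB1, a partner of WRKY33, was higher there by 2.25 ± 0.60 (adjusted p = 0.0314), whereas MKS1, which ties WRKY33 to the MAP kinase MPK4, had -0.42 ± 0.34 (adjusted p = 0.498).

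Among 11 genes known as WRKY targets, 8 to 10 were tested per cell type. In the epidermis 2 were higher in number 3 than in number 1 (3.58% of all genes), in the cortex 3 were higher (6.41%) and 1 was lower (5.25%), and in the pericycle none was called (0.503% higher), with list medians of 1.46, 1.27 and 0.74. ACS2, an ethylene synthesis gene bound by WRKY33, was higher by 2.80 ± 0.64 in the cortex (edgeR adjusted p = 0.0143) and by 1.94 ± 0.43 in the epidermis (adjusted p = 0.0369). CYP71A12, a cytochrome P450 of camalexin and related pathways, was higher in the cortex by 2.09 ± 0.56 (adjusted p = 0.0332). ICS1, which makes the precursor of salicylic acid and was named above as bound by WRKY28, was lower in number 3 of the cortex, with 36.6 to 45.2 CPM in number 1 and 6.84 to 20.1 CPM in number 3 (log2 fold change -1.57 ± 0.35, adjusted p = 0.0122). Of 6 elicitor marker genes, 3 were called higher in number 3 with 1 for epidermal, 3 for cortex and 1 for pericycle libraries, beside 3.58%, 6.41% and 0.503% of all genes. MYB51, a factor of indole glucosinolate synthesis, was higher by 3.68 ± 0.42 in the cortex (adjusted p = 0.000258), and PER4 by 3.88 ± 0.59 in the pericycle (adjusted p = 0.00161).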

How the data were processed

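RNA of sorted root cells was sequenced in 27 libraries of 3 cell types, 3 treatment labels and 3 replicate numbers, grouped by the labels. Per the paper's methods the authors mapped reads to TAIR10 with STAR and counted them without regard to strand with LiBiNorm, whereas TopHat2 2.0.14 and HTSeq stand in the submitters' processing notes. The values the authors deposited are unscaled whole-number counts for each gene. Libraries held 4172741 to 17188823 gene counts. Entries that name no gene were left out, with 5.24 to 9.31% (no feature), 2.82 to 5.55% (ambiguous) and 31.1 to 66.2% (several sites) of all counts in a table.

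Mitochondrial genes (21.9 to 42% of gene counts), plastid and rRNA genes and 375 ribosomal protein genes were left out, which left 2318515 to 12252196 counts. For each cell type its 9 libraries were fitted with edgeR 4.0.16 under R 4.3.3 (limma 3.58.1), with replicate number and treatment label as terms, TMM normalization, filterByExpr (minimum count 10, total 15) and the quasi-likelihood F test. The SE is the log2 fold change over the root of F. Cell types were compared over all 27 libraries, and interactions with cell type were fitted there. The threshold was 0.05 for the Benjamini-Hochberg adjusted p over all genes tested. Variance shares are sums of squares of log2 CPM with a prior count of 2. Alternatives were DESeq2 1.42.0, RLE size factors, no filter, ribosomal genes kept, the sequencing pool as a term, other model terms, libraries labelled mock alone and leaving out each library. The fits were tested on simulated data. Python 3.11.15, pandas 2.3.3 and matplotlib 3.10.9 made tables, promoter searches and plots. Promoters came from the RefSeq copy of TAIR10.1, joined to the counts by gene identifier.

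The 56 members and the gene lists were chosen with earlier results of these data known. By rule the text names every member called between treatment labels, per cell type the called members with the smallest p (10 for numbers 3 with 1, 5 for each other pair), per pair of cell types the 6 with the largest log2 difference each way at a mean log2 CPM of at least 2, 6 members that the paper or an earlier text on these data names, subgroup IIa, members tested in no cell type and the 4 genes of each pathway list with the smallest p. Other members named were chosen after their values were seen.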

Additional observations from a re-analysis of the deposited data

How the results depend on the processing

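None of the 74 calls of named members reversed its direction under the alternatives run, and named members that were not called were not run. DESeq2, RLE size factors, no filter and ribosomal genes kept left all 74 calls of named members past the threshold. Calls were lost in 67 and kept in 1247 fits of a member with 1 library left out. They were lost for 11 and kept for 25 in the libraries labelled mock alone, 6 and 32 with the sequencing pool, 4 and 33 without the replicate block, and 2 and 35 without the treatment term.

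With DESeq2, the members called between numbers 2 and 1 were 13 (epidermis), 18 (cortex) and 4 (pericycle), between numbers 3 and 1 14 in the epidermis and 7 in the pericycle, between numbers 3 and 2 7 in the epidermis, and 2 between Pep1 and mock in the cortex. For differences between cell types DESeq2 called 1 member each for flg22, Pep1 and numbers 2 with 1, and 2 for numbers 3 with 1. With no filter on low counts, numbers 2 with 1 gave 20 in the cortex and 1 in the pericycle, numbers 3 with 1 gave 5 in the pericycle, numbers 3 with 2 gave 4 in the epidermis and Pep1 with mock gave 3 in the cortex. With the sequencing pool, 0 members were called in the cortex for numbers 3 with 2 and for Pep1 with mock. In libraries labelled mock alone, cell type counts were 17 (epidermis with cortex), 17 (epidermis with pericycle) and 2 (cortex with pericycle). The cause of these shifts was not tested. The fit of libraries labelled mock alone used 9 libraries in place of 27, and the part of this was not tested either. Counts of all genes under the alternatives are not given in this section. Shifts in member counts are thus not shown to be particular to the family.

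With 1 library left out, counts for numbers 2 with 1 ranged from 1 to 11 (epidermis), 4 to 12 (cortex) and 0 to 0 (pericycle). For numbers 3 with 1 they ranged from 5 to 12, 11 to 14 and 1 to 3, and for numbers 3 with 2 from 0 to 3, 0 to 8 and 0 to 0. Pep1 with mock in the cortex gave 0 to 1. Cell type counts ranged from 27 to 30, 33 to 36 and 20 to 23.

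Same-numbered libraries deviated together in part, with a median correlation of 0.413 (epidermis), 0.325 (cortex) and 0.0721 (pericycle), and 8, 9 and 6 of 9 libraries correlated best with their own number. As not every pair was over 0.1, the number is not known to pair the libraries. The block was kept as the study's methods have it. Without the replicate block, 0 members were called for Pep1 with mock in the cortex, and 25, 30 and 16 between the pairs of cell types. Between 4 and 10 members had no read in a library, and the part of depth in this was not tested. The deepest library, epidermis Pep1 1 with 17188823 gene counts, had 5 such members, and epidermis Pep1 2 with 6454068 had 4. Pericycle Pep1 1 with 4172741 gene counts and pericycle Pep1 2 with 13322042 each had 10.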
